A study of Homo sapiens with 38 samples.

Results

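The regions described here are the promoters of long non-coding RNA (lncRNA) genes that start away from coding genes, scored for 2 histone marks in K562 cells. Genes of type lncRNA on the 22 autosomes were taken from the GENCODE annotation on hg19, and a gene was kept when its outermost start lay more than 5 kb from every transcript start typed protein-coding. This left 13040 of 18229 autosomal lncRNA genes (71.5%), termed distant lncRNA promoters below. The remaining 5189 lncRNA genes (near lncRNA promoters) and 19229 protein-coding genes were scored in the same way for comparison. Each promoter was the start plus and minus 1.5 kb, and it was called in a library when a deposited peak overlapped that window by at least 1 bp. The rule uses gene type and position and no peak value.

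The series holds 38 CUT&Tag libraries of K562, a human erythroleukemia line derived from chronic myeloid leukemia. In CUT&Tag an antibody against a chromatin mark guides the Tn5 transposase, so that fragments are released where the mark lies. All 8 libraries analysed here in detail were made from untreated cells (no deacetylase inhibitor TSA), the DNA being released with SDS and amplified for 15 cycles. Of these, 6 targeted H3K27ac with the antibodies ab177178 (1:100), ab4729 (1:100) and Diagenode (1:50), and the other 2 targeted H3K27me3 with CST-9733 (1:100), with 2 replicates for each antibody. The study's reporting summary calls the replicates biological, while the labels give no separate cultures for them. The p-values therefore count each library as 1 unit, although 2 replicates share each antibody. They do not extend to other cultures, antibodies or cell lines. K562 is a single cancer line with altered copy number, and copy number was not analysed here.

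H3K27ac, acetylation of lysine 27 on histone H3, marks active promoters and enhancers. H3K27me3, trimethylation of the same residue, is laid down by Polycomb repressive complex 2 and marks genes that are kept silent, often over broad domains. A single lysine cannot carry both groups at once. In bulk cells, a mark in fewer cells and less of the mark per cell cannot be told apart. LncRNA genes include hosts of microRNAs and small nucleolar RNAs (snoRNAs), structural RNAs such as NEAT1, and many transcripts of unknown role. Of the distant members, 9453 (72.5%) carried only an identifier as a name.

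The K562 identity of the lists was checked at the starts of marker genes. All 13 erythroid markers had an H3K27ac peak in at least 1 list, and 11 of them (MACS2) or 10 (SEACR) had one in all 6 H3K27ac libraries. Of 15 markers of other cell types, 11 had no H3K27ac peak in any list, while DES had one in all 6 libraries by both callers. The H3K27ac lists held 20844 to 34098 autosomal peaks by MACS2 and 10674 to 15223 by SEACR, and the H3K27me3 lists 63645 to 74886 and 81112 to 82907. The deposited lists carry no read depth, and calls were not set against depth here.

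The promoter sequences of 2 members with strong H3K27ac are shown and were chosen after their values were seen. Each run covers 250 bases before and 50 bases from the annotated start onwards in gene direction (GRCh37), and capitals mark CG dinucleotides. NEAT1, which builds nuclear paraspeckles (chr11:65189995-65190294, plus strand), had H3K27ac in all 6 libraries and no H3K27me3 peak. MIR17HG, host of the miR-17-92 cluster (chr13:91999690-91999989, plus strand), had H3K27ac in all 6 libraries and a weak H3K27me3 peak in the same window. Both starts are CpG-rich.
NEAT1: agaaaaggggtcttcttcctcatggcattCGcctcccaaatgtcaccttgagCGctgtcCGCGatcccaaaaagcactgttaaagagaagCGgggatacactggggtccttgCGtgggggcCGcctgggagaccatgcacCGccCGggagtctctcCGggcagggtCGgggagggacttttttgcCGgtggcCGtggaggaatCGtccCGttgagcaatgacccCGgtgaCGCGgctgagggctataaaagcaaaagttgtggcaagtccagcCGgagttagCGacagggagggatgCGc
MIR17HG: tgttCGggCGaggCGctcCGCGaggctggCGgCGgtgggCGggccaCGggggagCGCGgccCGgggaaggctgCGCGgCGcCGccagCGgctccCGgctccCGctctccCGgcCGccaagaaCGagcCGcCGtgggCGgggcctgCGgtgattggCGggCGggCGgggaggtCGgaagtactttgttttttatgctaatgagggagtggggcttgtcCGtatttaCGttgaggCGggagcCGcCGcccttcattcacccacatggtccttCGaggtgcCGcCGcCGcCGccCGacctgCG
The runs held 21 CG dinucleotides for NEAT1 and 42 for MIR17HG. The median over all distant lncRNA promoters was 3, against 18 for protein-coding promoters.

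H3K27ac was found at few of the distant lncRNA promoters. MACS2 called 10.6% and 10.2% of them with ab177178, 7.53% and 9.79% with ab4729 and 8.23% and 9.62% with Diagenode. The same lists called 51.6% and 51.3%, 41.8% and 49.6%, and 46.3% and 49.1% of protein-coding promoters, so that the 2 sets did not overlap in any library. The share averaged 9.33% ± 1.19 at distant lncRNA promoters and 48.3% ± 3.72 at protein-coding promoters (SD, n = 6 libraries each), a log2 ratio of -2.38 ± 0.08, or 5.20-fold lower. SEACR gave 7.94% ± 1.09 at distant lncRNA and 42.5% ± 4.26 at protein-coding promoters, with a log2 ratio of -2.42 ± 0.07. Near lncRNA promoters were called at 41.7% to 52.3% by MACS2, and the distant over near log2 ratio was -2.38 ± 0.08 (MACS2) and -2.51 ± 0.07 (SEACR). Each of these ratios was below 0 in 6 of 6 libraries (two-sided exact sign-flip permutation test, p = 0.0313, the smallest that 6 libraries allow, adjusted p = 0.0354 over 17 tests). Near lncRNA starts lie within 5 kb of a coding start by definition, so their windows can hold the peak of a coding promoter. The distant over near ratio cannot be read apart from this definition. Near lncRNA promoters 4500 to 5000 bases from a coding start were called at a mean of 13.4%, and distant ones at 5000 to 5500 bases at 12.6% (MACS2). The part of coding peaks in the near share was not tested.

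For H3K27me3 the shares of the sets lay close together. MACS2 called 25.6% and 22.9% of distant lncRNA promoters in the 2 H3K27me3 libraries, against 27.6% and 23.4% of protein-coding promoters. SEACR called 23.7% and 24.7% of distant lncRNA promoters, against 24.1% and 24.5% of protein-coding promoters. The log2 ratio averaged -0.07 ± 0.05 (MACS2) and -0.01 ± 0.03 (SEACR; SD, n = 2), and with 2 libraries no test can pass 0.05. The ratio was higher for H3K27me3 than for H3K27ac by 2.31 log2 units with MACS2 and 2.41 with SEACR (two-sided exact permutation of the mark labels, 28 arrangements, p = 0.0357, the smallest possible). Permuted within replicate numbers as a block, 16 arrangements remained and the exact p was 0.0625, again the smallest possible. The mark and the antibody cannot be told apart here, since H3K27me3 was profiled with a single antibody. Nor can the mark be told apart from the peak calling settings. The SEACR threshold was 0.01 for H3K27ac and 0.1 for H3K27me3, and MACS2 was run in broad mode for H3K27me3 only.

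**Figure D1:**
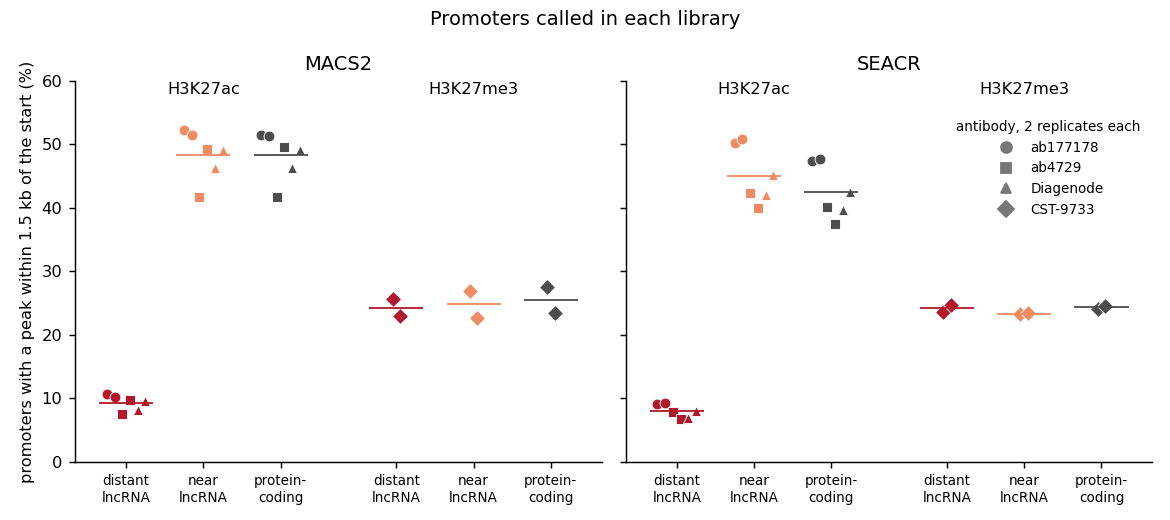
Share of promoters with a peak (y axis, percent) in each of the 8 libraries, by MACS2 (left) and SEACR (right), for distant lncRNA, near lncRNA and protein-coding promoters (x axis). Points are libraries, shapes are antibodies and lines are means. For H3K27ac the distant lncRNA points lie at 6.66% to 10.6%, below every near lncRNA and protein-coding point, while the H3K27me3 points of the 3 sets lie between 22.7% and 27.6%.

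Set against the genome, both marks were more frequent at distant lncRNA starts than in 3001-base tiles of the autosomes. Tiles with an H3K27ac peak made up 3.63% ± 0.69 (MACS2, n = 6), and distant lncRNA promoters were called 2.598 ± 0.185 times as often, compared with 13.6 ± 1.70 times for protein-coding promoters. For H3K27me3 the factor was 1.81 ± 0.02 at distant lncRNA and 1.90 ± 0.04 at protein-coding promoters (MACS2, n = 2). No test was run on the tiles.

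A promoter was counted as a consensus call when every library of a mark had a peak there. By MACS2, 848 distant lncRNA promoters (6.50%) had H3K27ac in 6 of 6 libraries, against 19.1% of the promoters of all 61221 annotated autosomal genes. H3K27me3 in 2 of 2 libraries was found at 2785 (21.4%), close to the 19.8% of all promoters. By SEACR the counts were 705 (5.41%) for H3K27ac, against 16.6% of all promoters, and 2775 (21.3%) for H3K27me3, against 19.5%. The H3K27ac share over all promoters is a mixture. It was 40.1% (MACS2) and 34.4% (SEACR) at protein-coding promoters. At the 23763 genes neither protein-coding nor lncRNA it was 4.36% and 4.12%, below the distant lncRNA promoters. The H3K27me3 count rests on the deposited threshold, since MACS2 peaks at a q of at most 1e-10 left 322 members with that consensus. Both callers gave an H3K27ac consensus at 657 members (5.04%; all promoters 15.8%) and an H3K27me3 consensus at 2611 (20.02%; all promoters 18.4%). A further 7740 members (59.4%) had no peak of either mark in any of the 16 lists.

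Consensus calls were the most frequent outcome among members called at all. By MACS2, 848 members had H3K27ac in 6 libraries, 169 in 5, 120 in 4, 113 in 3, 157 in 2 and 232 in 1. Overlapping windows were counted once per gene, and 1467 members (11.2%) shared bases with the window of another member. The 657 members called for H3K27ac by both callers fell into 538 merged windows and the 2611 called for H3K27me3 into 2439. At the edge of the definition, the 168 members with starts 5.0 to 5.5 kb from a coding start were called for H3K27ac at a mean of 12.6%, and the 171 near lncRNA promoters at 4.5 to 5.0 kb at 13.4% (MACS2).

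The H3K27ac peaks were centred on the annotated starts. The start base itself was covered at 6.35% ± 0.87 of distant lncRNA genes by MACS2, against 1.27% ± 0.26 at 4 kb upstream and 1.31% ± 0.29 at 4 kb downstream (SD, n = 6). The log2 ratio of the start over the mean of both flanks was 2.32 ± 0.13 for MACS2 and 1.33 ± 0.16 for SEACR, above 0 in 6 of 6 libraries (exact sign-flip permutation test, p = 0.0313, adjusted p = 0.0354). Coverage at 1 kb downstream was 3.49% ± 0.67 and at 1 kb upstream 2.53% ± 0.49 by MACS2, a log2 ratio of 0.46 ± 0.08, and SEACR gave 0.24 ± 0.05 (both with the same p and adjusted p). H3K27me3 covered 17.1% and 15.7% of the starts (MACS2), against 12.7% and 11.6% at 4 kb upstream, a smaller rise over a higher flank. The summit of the strongest MACS2 peak lay a median of 14 to 69 bases downstream of distant lncRNA starts, against 74 to 196 bases downstream of protein-coding starts, over the 6 H3K27ac libraries. It fell within 500 bases of the start in 65.2% ± 2.32 of the distant lncRNA and 71.3% ± 2.63 of the protein-coding promoters that had one.

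**Figure D2:**
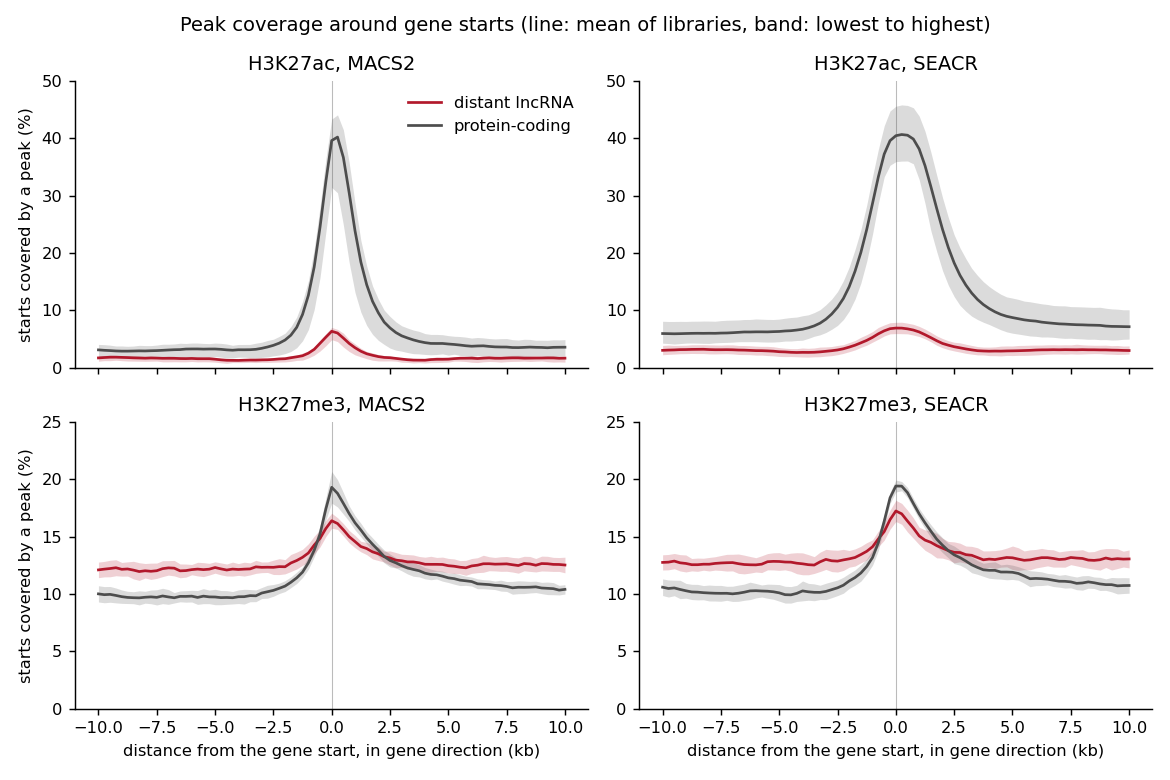
Share of gene starts covered by a peak (y axis, percent) at each distance from the start in gene direction (x axis, kb), for distant lncRNA and protein-coding genes. Lines are means over the 6 H3K27ac (top) or 2 H3K27me3 (bottom) libraries, bands run from the lowest to the highest library, and the y scales of the rows differ. The distant lncRNA curves peak at the start, at 6.35% for H3K27ac and 16.4% for H3K27me3 with MACS2.

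Few peaks at distant lncRNA starts also reached a coding start. The widest H3K27ac peak per called member had a median of 982 to 1456 bases by MACS2 across libraries. Under the rule of more than 5 kb, few such peaks could reach a coding start. By MACS2, 3 to 7 of the 982 to 1383 members called per H3K27ac library had a peak that also reached a protein-coding transcript start (0.30% to 0.65%). By SEACR, whose peaks are wider, this held for 25 to 93 members (2.46% to 7.81%). For H3K27me3 it held for 5.90% and 6.26% of the called members by MACS2.

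H3K27ac was more frequent at CpG-rich than at CpG-poor members. A start was called CpG-rich when the 1000 bases around it had at least 50% G and C and a ratio of observed to expected CpG of at least 0.6. Only 1052 distant lncRNA starts (8.07%) were CpG-rich, against 58.2% of protein-coding and 52.9% of near lncRNA starts. H3K27ac was found by MACS2 at 40.9% ± 3.05 of CpG-rich and 6.56% ± 1.03 of CpG-poor distant lncRNA promoters (SD, n = 6). The log2 ratio was 2.65 ± 0.13 with MACS2 and 2.62 ± 0.10 with SEACR, above 0 in 6 of 6 libraries (exact sign-flip permutation test, p = 0.0313, adjusted p = 0.0354). Within the CpG-rich class alone, a comparison added after the lists had been seen, distant lncRNA promoters still lay below protein-coding ones, at 40.9% ± 3.05 against 67.2% ± 4.48 (log2 ratio -0.72 ± 0.02 with MACS2 and -0.77 ± 0.04 with SEACR, 6 of 6 libraries below 0, exact sign-flip permutation test, p = 0.0313, adjusted p = 0.0349).

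H3K27me3 went with CpG content in opposite directions at distant lncRNA and protein-coding promoters. Among distant lncRNA promoters, 38.7% and 34.2% of the CpG-rich ones were called by MACS2, against 24.4% and 21.9% of the CpG-poor ones. Among protein-coding promoters, 25.7% and 20.8% of the CpG-rich ones were called, against 30.2% and 27.01% of the CpG-poor ones. SEACR gave 34.9% and 34.5% for CpG-rich and 22.7% and 23.9% for CpG-poor distant lncRNA promoters. The direction was the same in both libraries with both callers in each set, and 2 libraries allow no test.

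**Figure D3:**
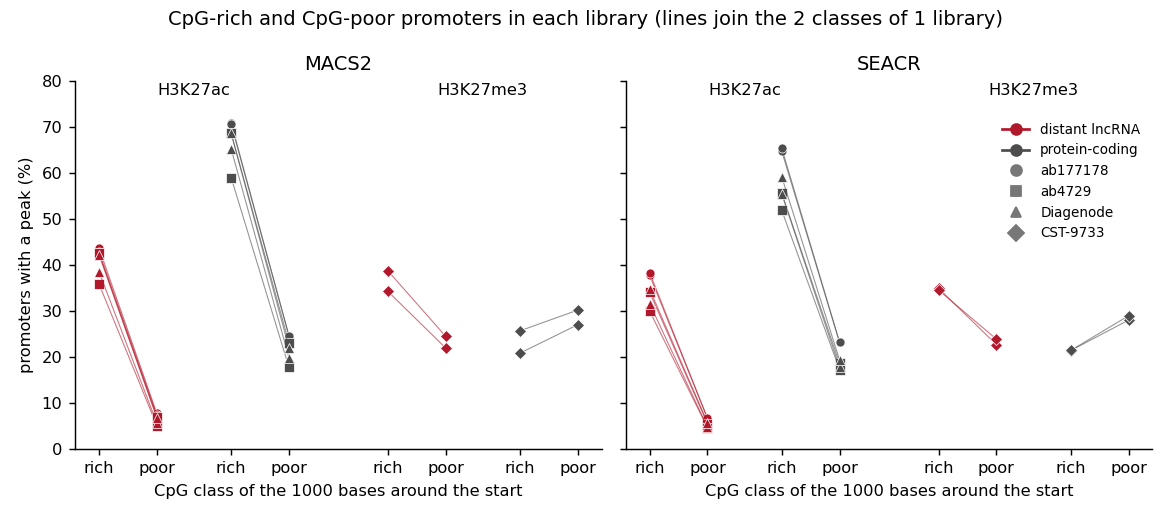
Share of promoters with a peak (y axis, percent) for CpG-rich and CpG-poor starts (x axis) of distant lncRNA and protein-coding genes, by mark and caller. Each line joins the CpG-rich and CpG-poor values of 1 library. For H3K27me3 the distant lncRNA lines fall, from 34.2% and 38.7% at CpG-rich starts with MACS2, while the protein-coding lines rise.

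The classes of promoter also differed in base composition. The 568 members with H3K27ac in all lists and no H3K27me3 peak in any list had a median of 55.5% G and C, and 39.4% of them were CpG-rich. The 2466 members with H3K27me3 in all lists and no H3K27ac peak had 51.7% G and C, and 10.4% were CpG-rich. The 7740 members with no peak had 41.9% G and C, and 2.98% were CpG-rich. Median distances to a coding start were 37.4, 44.8 and 71.5 kb in these 3 classes. These classes rest on the same lists as the shares above and were not tested.

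H3K27ac was more frequent at members 5 to 20 kb from a coding start than at those beyond 100 kb. MACS2 called 12.2% ± 2.17 of the 3150 members that start 5 to 20 kb from a coding start, against 5.93% ± 0.54 of the 4527 members beyond 100 kb (SD, n = 6). The log2 ratio was 1.03 ± 0.16 with MACS2 and 1.10 ± 0.25 with SEACR, above 0 in 6 of 6 libraries (exact sign-flip permutation test, p = 0.0313, adjusted p = 0.0354). CpG-rich starts made up 10.8% of the closer and 5.19% of the farther members. The order was kept in both CpG classes, with 42.0% ± 3.44 against 33.97% ± 2.84 at CpG-rich and 8.60% ± 2.03 against 4.40% ± 0.42 at CpG-poor starts (MACS2), values given without a test.

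H3K27me3 had another course. The MACS2 share was 25.3% at 5 to 10 kb, 24.0% at 10 to 20 kb, 29.9% at 20 to 50 kb, 31.6% at 50 to 100 kb, 19.7% at 100 to 500 kb and 4.06% beyond 500 kb (means of 2 libraries). SEACR gave 31.7% at 50 to 100 kb and 4.17% beyond 500 kb. In the farthest class of 923 members the 2 libraries gave 3.58% and 4.55% by MACS2, below the 12.5% to 14.2% of genome tiles. H3K27ac stood at 7.01% ± 0.67 there (MACS2, n = 6), above its value of 5.66% ± 0.52 at 100 to 500 kb, and SEACR gave 6.12% ± 0.60 and 4.68% ± 0.47, a difference that was not tested.

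**Figure D4:**
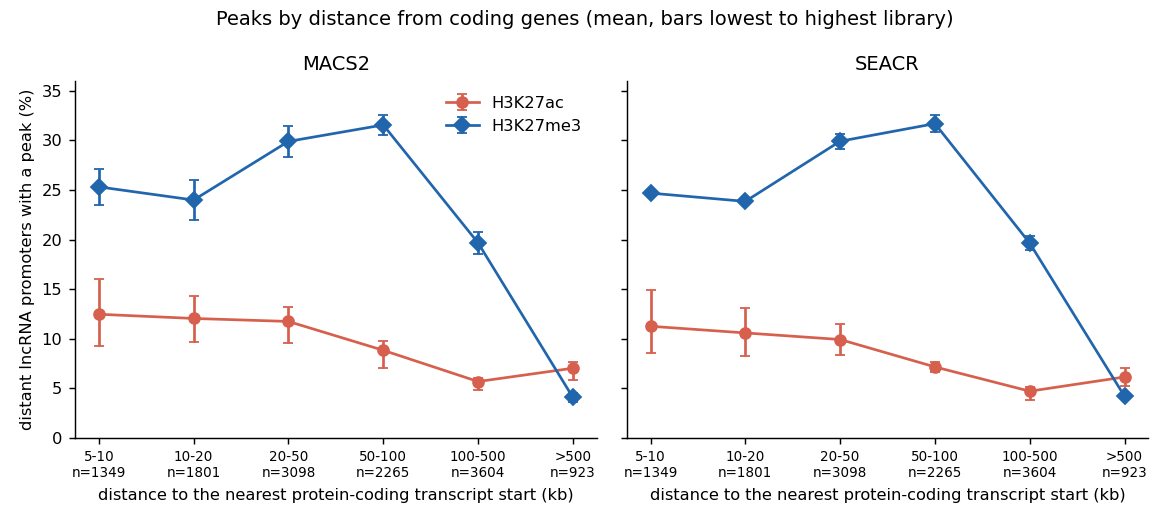
Share of distant lncRNA promoters with a peak (y axis, percent) by distance to the nearest protein-coding transcript start (x axis, kb, with the number of members), for each mark and caller. Points are means and bars run from the lowest to the highest library. H3K27me3 is highest at 50 to 100 kb and drops to 4.06% beyond 500 kb with MACS2, below H3K27ac.

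The position inside or outside coding genes went with both marks. The 9091 members outside any coding gene were called for H3K27ac at 10.7% ± 1.09 and for H3K27me3 at 25.9% ± 2.12 by MACS2. The 2792 members inside a coding gene on the opposite strand stood at 6.66% ± 1.69 and 21.8% ± 1.34, and the 1061 inside one on the same strand at 5.18% ± 1.13 and 17.4% ± 1.67 (SD, n = 6 and 2). CpG-rich starts made up 10.1% of the members outside coding genes and 3.33% and 3.49% of these 2 inner classes. Their part in the difference was not tested.

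The shares of the name classes are given without a test. Small nucleolar RNA host genes (SNHG), whose introns release snoRNAs that guide modification of ribosomal RNA, were called for H3K27ac at 83.3% by MACS2, with 15 of 18 members in all 6 libraries by both callers. SNHG11, SNHG12, SNHG15 and SNHG16 had median MACS2 fold enrichments of 17.4, 13.9, 29.3 and 28.6. The 3 members of the class without a consensus were SNHG14, an imprinted host with no peak in any list, SNHG27, and SNHG28, which had H3K27me3 in both libraries. Of these 18 starts 83.3% were CpG-rich, and 19.1% of all promoters had an H3K27ac consensus by MACS2.

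MicroRNA hosts were called at 27.5% ± 1.296 for H3K27ac, with 16 of 63 members (25.4%) in all 6 libraries by MACS2 and 13 (20.6%) by SEACR, against 19.1% and 16.6% of all promoters. An H3K27me3 consensus was found at 10 of them (15.9%) by MACS2 and 9 (14.3%) by SEACR, against 19.8% and 19.5% of all promoters. MIR17HG and MIR181A2HG, host of miR-181 genes that act in blood cells, were among those with H3K27ac. Genes with LINC numbers stood at 10.1% ± 1.06 (n = 2072) and those named only by an identifier at 7.97% ± 1.16 (n = 9453). The 780 members with antisense names stood at 10.7% ± 1.75. Only 6 members had divergent names, and none of them, GNA15-DT and NOL4L-DT included, reached a consensus, although GNA15-DT had an H3K27ac peak in 4 libraries and NOL4L-DT in 5 by MACS2.

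The 4 lists of known lncRNAs were read against these classes. Of 29 distant members among the well-studied lncRNAs, 13 had H3K27ac in all 6 libraries by MACS2 and 11 by SEACR, 7 had H3K27me3 in both libraries by each caller, and 5 had no peak at all. Of 14 members of the blood and leukemia list, 8 (MACS2) and 7 (SEACR) had the H3K27ac consensus and 5 had no peak. Of 10 imprinted members, 1 had the H3K27ac consensus and 2 the H3K27me3 consensus by each caller. Of 9 developmental and neural members, 5 had the H3K27me3 consensus by each caller, and 1 (MACS2) or 0 (SEACR) the H3K27ac consensus. The lists overlap and are small, and they were described with no test beside the 19.1% and 19.8% of all promoters.

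NEAT1, MIR17HG and MALAT1 had the strongest H3K27ac of the listed members, with median MACS2 fold enrichments of 150.2, 113 and 95.7. NEAT1 and MALAT1, abundant nuclear lncRNAs, lie side by side on chromosome 11. The MACS2 fold enrichment of the highest peak at NEAT1 (start 65190245) was 159 and 142 with ab177178, 94.5 and 106 with ab4729, and 158 and 176 with Diagenode. At MALAT1 (start 65265111) it was 105 and 86.0 with ab177178, 66.2 and 85.9 with ab4729, and 151 and 190 with Diagenode. Both were lowest with replicate 1 of ab4729 and highest with replicate 2 of Diagenode. Their SEACR peaks had a median width of 15366 and 22308 bases. ENSG00000290057 starts just before NEAT1 and shares its peak, so its values are the same.

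Other listed members also had H3K27ac in all 6 libraries, and some of them are given here. DLEU2, host of miR-15a and miR-16-1 in a region lost in lymphocytic leukemia, had fold enrichments of 35.1 and 34.6 with ab177178, 19.6 and 28.2 with ab4729, and 30.0 and 49.9 with Diagenode. NORAD, which sequesters Pumilio proteins, had values from 26.8 to 68.1 with a median of 46.5. UCA1, first described in urothelial carcinoma, ranged from 18.9 to 51.1, and CYTOR from 22.5 to 58.4. KCNQ1OT1, the antisense RNA that silences genes on the paternal chromosome 11p15 allele, ranged from 13.8 to 35.9 and was the 1 imprinted member with the consensus. For CYTOR 79.2% of the 32-base words of the window occur more than once in GRCh37, and the part of other copies in its signal was not tested.

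Several lncRNAs known from blood cells had no peak in any list. They were MIR155HG, host of miR-155 of activated lymphocytes, MIR181A1HG, MIR3142HG, LUCAT1 and THRIL. EGOT, an eosinophil granule transcript, had a single SEACR peak in 1 library. SAMMSON, a melanoma lncRNA, had H3K27ac peaks in 4 of 6 libraries by MACS2, with fold enrichments of 9.52 and 7.77 with ab177178 and 6.28 and 12.8 with Diagenode, and none with ab4729 or by SEACR. MEG3, a maternally expressed imprinted lncRNA, was called in 1 library by MACS2 and 3 by SEACR. This holds for its outermost annotated start (101245747 on chromosome 14), and no other start of the gene was scored.

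H3K27me3 was found at 5 of the 9 developmental and neural members. Of the 10 imprinted members 2 had it (20%), a share close to the 19.8% of all promoters, and 5 had no peak of either mark. H19, an imprinted growth-restraining RNA, was scored at its outermost annotated start (2025782 on chromosome 11) and at no other. It had fold enrichments of 11.0 and 13.7 within SEACR peaks of 51880 and 38308 bases, and no H3K27ac peak there. MIR9-3HG, host of the neural miR-9, had 10.6 and 15.0 within peaks of 25063 and 24820 bases. DLX6-AS1, an antisense RNA of the forebrain gene DLX6, had 9.26 and 10.3, and CASC15, a neighbour of SOX4, 7.51 and 7.69. SOX1-OT, named as a transcript overlapping the neural factor gene SOX1, had 4.63 and 4.20, and LINC00461, a brain lncRNA, 5.59 to 6.38. MIR9-1HG differed from MIR9-3HG, with H3K27ac in all 6 libraries by MACS2 at fold enrichments of 6.54 to 10.7 and an H3K27me3 peak in 1 of 2 libraries. SEACR called H3K27ac at MIR9-1HG in only 2 of 6 libraries, both with ab177178. Its MACS2 H3K27ac peaks had a median percentile of 17.5 within their lists. The widest H3K27me3 SEACR peaks over members had median widths of 74226 bases at ENSG00000266711 on chromosome 17 and 65996 bases at ENSG00000261795 and ENSG00000239715, which share 1 domain on chromosome 7.

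**Figure D5:**
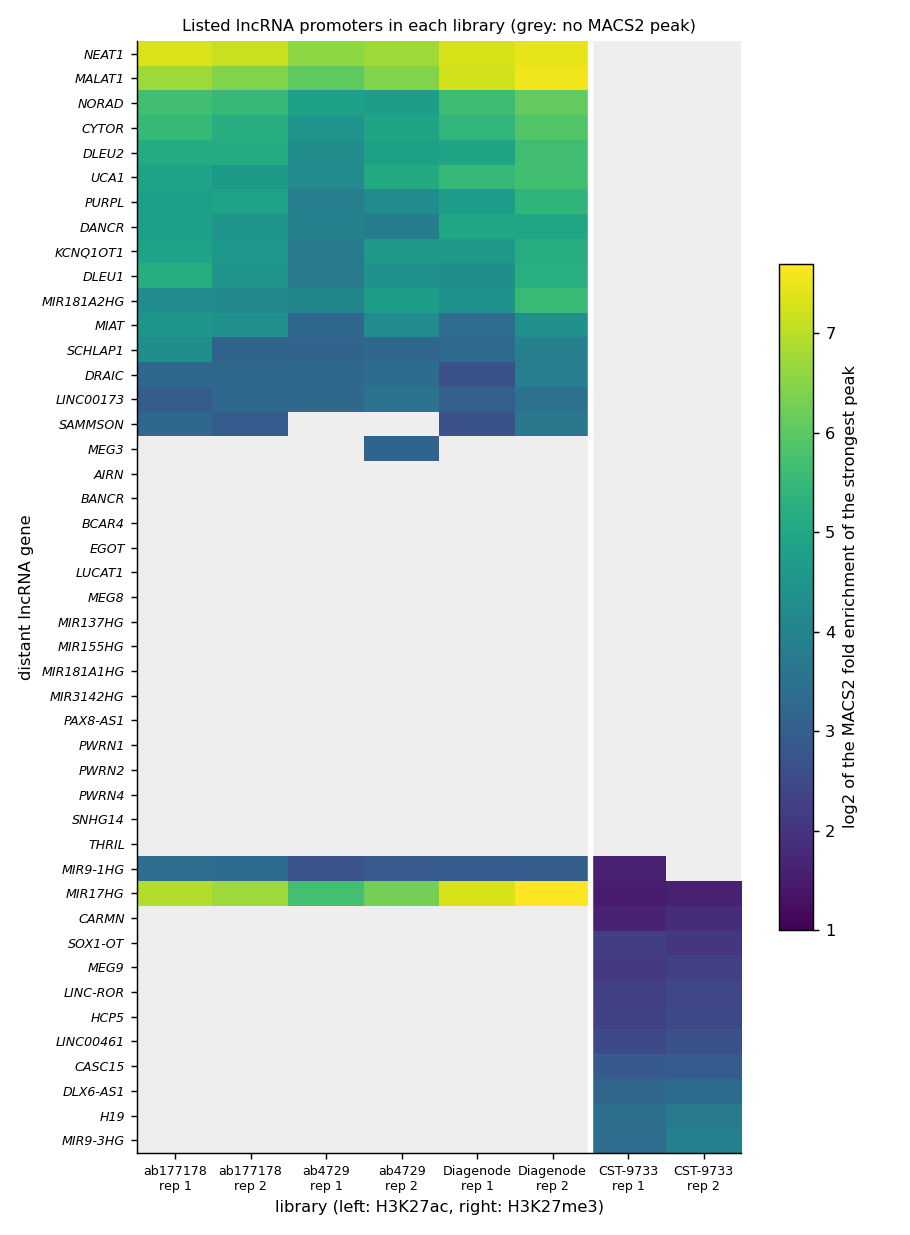
Log2 of the MACS2 fold enrichment of the strongest peak (colour) at the listed distant lncRNA promoters (rows) in the 8 libraries (columns, H3K27ac left and H3K27me3 right), with grey for no peak. MACS2 ran in broad mode for H3K27me3 only, so colours cannot be compared between the marks. H3K27ac and H3K27me3 fall on different genes, apart from MIR9-1HG and MIR17HG, which have both.

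Both marks in all libraries were found at 74 members by MACS2 (0.57%; all promoters 0.802%), 44 by SEACR (0.34%; all promoters 0.467%) and 40 by both callers (0.31%; all promoters 0.385%). Among members called for H3K27ac, 8.63% ± 0.70 also had the H3K27me3 consensus by MACS2, against 4.14% ± 0.32 of protein-coding promoters (SD, n = 6). The difference was 4.49 ± 0.56 percentage points with MACS2 and 4.11 ± 0.72 with SEACR, above 0 in 6 of 6 libraries (exact sign-flip permutation test, p = 0.0313, adjusted p = 0.0354). The same 2 H3K27me3 libraries gave the consensus for all 6 values, so this p does not cover their spread. Leaving out each library in turn gave 3.07 to 4.59 points with MACS2. With lncRNA windows of repeated sequence left out the difference was 2.43 points with MACS2 and 2.07 with SEACR, still above 0 in every library. Protein-coding windows were not filtered in this way. Both MACS2 shares lay below the H3K27me3 consensus of each whole set, 21.4% of distant lncRNA and 21.9% of protein-coding promoters. Without replicate 2 of CST-9733 the MACS2 count of members with both marks was 120. At 71 to 74 of the 74 MACS2 members the peaks of the 2 marks shared bases.

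Many of these members lie in sequence with copies elsewhere. For each window the share of 32-base words that occur more than once in GRCh37 was counted, and it was a median of 50.3% in the 40 members with both marks by both callers, 11.5% in the 568 with H3K27ac alone, 6.50% in the 2466 with H3K27me3 alone and 7.30% in all members. It was at least 50% in 20 of the 40. Among the 40 were 4 pseudogenes of the FAM86 family, noticed after the values were seen. They were FAM86DP, FAM86JP, FAM86EP and FAM86C2P, with 49.1%, 53.2%, 48.3% and 51.5% repeated words. LINC02018, LINC02614 and LINC02021 had 48.0%, 52.3% and 54.1%. DDX11L2, at the end of chromosome 1 with 93.4% repeated words, had H3K27ac fold enrichments from 112 to 279 with a median of 149, the highest median among the named members with both marks. Whether fragments of several copies were placed at 1 copy was not tested.

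Of the 40 members, 9 had under 10% repeated words. By chromosome, 8 of the 40 lay on chromosome 22, which holds 303 of the 13040 members, and 7 on chromosome 3. LINC01311, ENSG00000289481 and LINC02891, given next, are among those on chromosome 22. Whether copy number had a part in this was not tested. LINC01311 and ENSG00000289481 start close together on opposite strands of chromosome 22, with no repeated word, and share their peaks. At LINC01311 the H3K27ac fold enrichments were 75.6 and 78.3 with ab177178, 32.7 and 39.8 with ab4729, and 48.1 and 69.97 with Diagenode, and the H3K27me3 values were 5.95 and 6.07. LINC02891 had H3K27ac values of 54.2 and 60.3 with ab177178, 26.2 and 53.6 with ab4729, and 44.6 and 65.7 with Diagenode, within an H3K27me3 domain of 43707 and 39871 bases by SEACR. MATN1-AS1 had 27.6 to 52.2 for H3K27ac and 4.36 and 5.75 for H3K27me3. MIR17HG is not among the 40. Its H3K27ac values were 121 and 105 with ab177178, 51.6 and 78.3 with ab4729, and 156 and 201 with Diagenode, and H3K27me3 stood at 2.86 and 3.06, with a SEACR peak in 1 of 2 libraries.

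Peak width set against coding genes depended on the caller. The median of the widest H3K27ac peak was 982 to 1456 bases at distant lncRNA and 1059 to 1793 at protein-coding promoters by MACS2, a log2 ratio of -0.35 ± 0.18, below 0 in 6 of 6 libraries (exact sign-flip permutation test, p = 0.0313, adjusted p = 0.0354). By SEACR it was 3181 to 4349 and 2993 to 4200 bases, a log2 ratio of 0.06 ± 0.06 with 5 of 6 libraries above 0 (exact sign-flip permutation test, p = 0.0625, adjusted p = 0.0625). The widest SEACR H3K27ac peaks over members were at BCL2L1-AS1, with a median of 47013 bases, and at DLGAP1-AS1 and DLGAP1-AS2, with a median of 28955 bases each. These neighbours had peaks of equal width in 4 of the 6 libraries and different ones in replicate 1 of ab4729 and replicate 1 of Diagenode, where no peak exceeded 12012 bases.

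The 2 callers shared most members. In each H3K27ac library 84.7% to 93.7% of the members called by SEACR were also called by MACS2, and 63.7% to 87.6% of those called by MACS2 were also called by SEACR. The MACS2 over SEACR log2 ratio of the share was 0.23 ± 0.20, above 0 in 5 of 6 libraries, with replicate 1 of ab4729 the exception (exact sign-flip permutation test, p = 0.0625, adjusted p = 0.0625). For H3K27me3 the overlap was 88.7% and 97.4% of the MACS2 members.

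Replicates of 1 antibody shared most of their members. Of the members called in either MACS2 replicate, 81.7% were in both for ab177178, 81.0% for Diagenode, 78.7% for CST-9733 and 72.3% for ab4729. Of the ab4729 members, 34 were in replicate 1 alone and 329 in replicate 2 alone. Members called in both ab177178 replicates and in no other H3K27ac library numbered 79 by MACS2 and 106 by SEACR, against 2 and 5 for ab4729 and 11 and 10 for Diagenode. Over all promoters the ab177178 pair alone called 473 by MACS2 (0.773%) and 972 by SEACR (1.59%), the ab4729 pair 16 (0.0261%) and 14 (0.0229%), and the Diagenode pair 69 (0.113%) and 57 (0.0931%), so the higher count with ab177178 was not limited to these members. It made up 0.606% of the distant lncRNA promoters by MACS2 and 0.813% by SEACR, against 0.972% and 2.82% of protein-coding promoters. Taken over the promoters that the ab177178 pair called, the order was the reverse. Calls by this pair alone were 6.48% (MACS2) and 9.82% (SEACR) of its distant lncRNA calls. They were 1.94% and 6.16% of its protein-coding calls, and 3.14% and 6.93% over all promoters. Only 23 members were found by both callers in the ab177178 pair alone. Of those 39.1% lay outside coding genes, against 69.7% of all members.

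The other 30 libraries were made in a first round, with TSA, or with fewer PCR cycles and 1 of 2 extractions, and some of their lists came from reads downsampled before calling. In 16 H3K27ac lists with 11 or 13 PCR cycles (SEACR), 31.8% to 63.6% of the 657 consensus members were called. In the 5 first-round H3K27ac libraries the share ran from 17.4% for Active Motif to 95.7% for ab4729 by MACS2, and from 27.1% to 95.1% by SEACR. In the 4 libraries with TSA it ran from 15.1% to 52.4% by MACS2 and from 41.4% to 79.3% by SEACR. The first-round H3K27me3 library called 90.2% of the 2611 consensus members by MACS2. The distant lncRNA over protein-coding log2 ratio lay between -2.86 and -1.88 in all 34 H3K27ac lists, and between -0.42 and 0.08 in the 6 H3K27me3 lists. Each of these conditions has a single library per antibody, and the ratios are given without a test.

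Sequence motifs in the 300 bases from 250 before to 50 after the start were counted in the same classes. Motifs were searched on both strands and could overlap. The GC box (GGGCGG) was found in 13.4% of distant lncRNA promoters, against 52.4% of protein-coding and 26.9% of all promoters of this length. It was in 42.6% of the members with H3K27ac alone, 19.1% of those with H3K27me3 alone and 7.1% of those with no peak. The GATA motif (the letters GATAA after an adenine or a thymine), bound by the erythroid factor GATA1, was in 17.8%, 19.2% and 30.9% of these classes, against 22.5% of all promoters, and the CCAAT box, searched by the letters of its name, was in 34.3%, 31.2% and 40.0%, against 36.4% of all. Within CpG-poor starts the GC box was in 21.8% of the members with H3K27ac alone and 5.6% of those with no peak, GATA in 23.5% and 31.6%, and CCAAT in 32.6% and 40.5%. Within CpG-rich starts the GC box was in 74.6% and 55.8% of these 2 classes, GATA in 8.93% and 8.23%, and CCAAT in 37.1% and 23.4%. The order for CCAAT, and by a small margin that for GATA, was the reverse of that in all starts. Of the promoters printed above, both hold a GC box, MIR17HG a CCAAT box and NEAT1 a TATA motif (TATAAA). A match is a description of the letters and not of binding.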

How the data were processed

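CUT&Tag libraries of K562 cells, 38 in all, were represented by 56 peak lists, 18 from MACS2 and 38 from SEACR. Reads were trimmed (Trim Galore 0.6.6), aligned to hg19 (Bowtie2 2.2.9) and freed of duplicates (Picard 2.6.0), and peaks were called per library. The SEACR lists deposited by the authors give summed and maximum signal, that is fragment coverage not scaled to depth, at thresholds of 0.01 (H3K27ac) and 0.1 (H3K27me3). The MACS2 lists deposited by the authors give a score, the fold enrichment over the background of the same library, and −log10 p and q values, at a q of 1e-05 without local background, in broad mode for H3K27me3. Fold enrichments and q values of the 2 marks therefore come from different modes and cannot be compared between marks. Blacklisted regions had not been removed. Read depth, which the lists do not carry, was not used here.

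Gene starts came from GENCODE 44 on GRCh37, the coordinates of hg19, taking the outermost start of each gene, which may not be the start in use. Windows of 1.5 kb on either side were intersected with the lists (Python 3.11.15, pandas 2.3.3, scipy 1.17.1). The overlaps were checked on simulated peaks and, for a deposited list of each caller, against bedtools 2.31.1. Promoter and window sequences were read from the GRCh37 genome. Log2 ratios per library were tested with two-sided exact sign-flip permutation over 6 H3K27ac libraries (64 patterns), with Benjamini-Hochberg adjustment over 17 tests, and the marks were compared by exact permutation of 8 libraries. Named genes were the members of the 4 lists, up to 4 examples of each name class, the 5 highest in each consensus class and the 3 widest of each mark. The members and lists were chosen with earlier results of these data known. Genes of 1 chromosome are counted but not named.

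Alternatives were windows of 0.5 and 3 kb, a distance of 10 kb, starts of all transcripts of coding genes, peaks that cover the start, a MACS2 q of 1e-10, the SEACR peaks of highest signal (50% of each list), merged windows, multi-exon genes alone, each library left out and a replicate block. Leaving out windows with at least 50% repeated 32-base words, and the comparison within CpG-rich starts, were added after the data had been seen.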

Additional observations from a re-analysis of the deposited data

Results flagged for a closer look

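The difference between the marks was marked for a second look. The distant lncRNA over protein-coding log2 ratio was higher for H3K27me3 than for H3K27ac by 2.31 with MACS2 and 2.41 with SEACR (exact permutation of the mark labels, p = 0.0357). The mark cannot be told apart from the antibody or from the peak calling settings, which differed between the marks.

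The H3K27me3 share of CpG-rich over CpG-poor starts was 1.57 at distant lncRNA promoters and 0.811 at protein-coding promoters with MACS2, and 1.49 and 0.751 with SEACR. Both libraries ran one way in the distant lncRNA set and the other way in the coding set, and this difference was not tested. By consensus calls, near lncRNA promoters ran the coding way, and genes neither protein-coding nor lncRNA the distant lncRNA way.

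The widest MACS2 H3K27ac peak at a distant lncRNA promoter spanned 11050 bases in replicate 1 of ab4729, far below the other 5 libraries. This was 1 of 38 sets of 6 libraries with such a value, and chance gives about 1 in 20.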

How the results depend on the processing

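Of the tests run again under alternatives, 185 kept their direction and side of the threshold. The replicate block left the difference between marks at 2.31 (MACS2) and 2.41 (SEACR), with an exact permutation p of 0.0625, the smallest that 16 arrangements allow. Deviations of same-numbered libraries correlated at -0.10 to 0.204 over 12 pairs of antibodies and callers (13040 promoters each), and only Diagenode against ab4729 with MACS2 was above 0.1, so the numbers were not taken as pairs. With peaks required to cover the start, the MACS2 over SEACR ratio became -0.13 (exact sign-flip permutation, p = 0.188), the MACS2 consensus counts 556 for H3K27ac, 1782 for H3K27me3, 1756 for H3K27me3 only and 26 for both, and the SEACR counts 1843, 1814 and 29 for H3K27me3, H3K27me3 only and both. At a MACS2 q of 1e-10 there were 322, 312 and 10 of these. With the SEACR peaks of highest signal, the SEACR width ratio was 0.21, the MACS2 over SEACR ratio 0.98, and the SEACR counts 410 for H3K27ac, 399 for H3K27ac only and 11 for both. The SEACR width ratio also passed the threshold with merged windows (0.10) and without repeated windows (0.11), where both marks remained at 44 (MACS2) and 22 (SEACR) promoters. The causes were not tested.

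With 1 H3K27ac library left out, 5 remain and the sign-flip p cannot go below 0.0625, and without an H3K27me3 library the marks cannot be told apart at 0.05. Leaving out each library gave ranges, MACS2 then SEACR, of -2.40 to -2.36 and -2.44 to -2.40 against coding, -2.40 to -2.36 and -2.52 to -2.49 against near lncRNA, 2.28 to 2.34 and 1.28 to 1.37 for start over flanks, 0.44 to 0.49 and 0.23 to 0.25 for downstream over upstream, 2.62 to 2.68 and 2.595 to 2.64 for CpG-rich over CpG-poor, 0.98 to 1.06 and 1.04 to 1.16 for distance, 3.07 to 4.59 and 3.41 to 4.29 points for H3K27me3 among H3K27ac, -0.40 to -0.30 and 0.05 to 0.08 for width, -0.72 to -0.71 and -0.79 to -0.76 within CpG-rich starts, and 2.27 to 2.35 and 2.39 to 2.43 for the marks. The MACS2 over SEACR ratio ranged from 0.17 to 0.29. The count with both marks ranged from 74 to 120 by MACS2 and 44 to 63 by SEACR, the highest of each without replicate 2 of CST-9733.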
